A study of Drosophila melanogaster with 4 samples.

Results

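Isolated H3K4me1 domains are stretches of enriched chromatin that stand alone on a chromosome arm, with no other called region for a long way on either side. On the autosome arms 2L, 3L and 3R of *Drosophila melanogaster* there were 473 of them, among 4438 H3K4me1 domains on these arms and 7633 domains over all sequences. They were chosen by position and width in 1 list: the regions that the authors called for the replicate set, named the combined list here. Neighbouring regions were joined across gaps of 500 bp or less, and a joined domain was kept if it was 10000 bp wide or less and if the gaps to the previous and to the next domain both exceeded 10000 bp. Of the 3880 domains within the width limit, 12.2% were isolated. They held 1.23 Mb of the 22.0 Mb of region bases on the 3 arms, or 5.60%. The other 3407 domains of 10000 bp or less, called non-isolated here, are the set they are compared with. Of these, 1928 had both neighbours within 10000 bp and 1474 had a neighbour within that distance on 1 side.

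The chromatin came from head nuclei of adult flies of the wild-type Oregon-R strain, with heads sieved from whole adults raised in population cages. The stage label was mixed adult. All samples share this genotype, tissue and stage, and the labels name no treatment. The study held 2 ChIP libraries, made with 1 lot of an antibody against H3K4me1, and 2 input libraries, each serving the ChIP of the same number. Chromatin was fixed with formaldehyde and sheared by sonication. Head nuclei are a mixture of neurons, glia, photoreceptors and other cells, so a region can come from some of the cells or from all of them. The lists give no read totals, and the depth behind a region is unknown. Whether the 2 replicates were separate collections of flies is not stated in the labels, and their spread may be technical. Positions are 1-based on FlyBase release 5.

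Histone H3 carrying a single methyl group on lysine 4 is best known as a mark of enhancers, both active and poised, and of the flanks of active promoters. In flies the methyltransferase Trithorax-related places much of this mark at enhancers. Genes with elaborate developmental control often have their enhancers strung out over long intergenic or intronic stretches. No gene is named at the domains below, since no annotation of release 5 was used here.

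Isolated domains were narrow. Their median width was 1910 bp, with quartiles of 1366 and 3298 bp and a range of 1001 to 9989 bp. Non-isolated domains had a median of 2749 bp and quartiles of 1742.5 and 4906 bp. The difference of the medians was -839 bp, and -328.5 bp when only domains of 5000 bp or less were taken. The same rule applied to each replicate's own list gave differences of -952.5 bp in replicate 1 and -681 bp in replicate 2. Most isolated domains were a single called region: 432 consisted of 1 region, 37 of 2 and 4 of 3. This split was not compared with non-isolated domains of the same width. The smaller of the 2 side gaps of an isolated domain had a median of 16304 bp and ran from 10009 to 254861 bp, and the larger had a median of 35474 bp. A gap of 30000 bp or more lay on at least 1 side of 284 isolated domains and on both sides of 89.

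Several isolated domains scored high in all 3 lists. The score is the authors' own enrichment value on a scale that is not given, and it is read here within 1 list only. A domain takes the highest score of its regions. The leading isolated domain found in both replicates lay at 9698713 to 9705055 on 3R. It was 6343 bp wide, stood 33035 bp from the domain before it and 20869 bp from the next, and had a combined score of 1.60, with 1.49 in replicate 1 and 2.25 in replicate 2. Replicate 1 covered 98.1% of its bases and replicate 2 covered 86.7%, each with 1 region.

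Behind it came a 4626-bp domain at 12424992 to 12429617 on 3L, with a combined score of 1.31, a replicate 1 score of 1.27 and a replicate 2 score of 2.05. Of the 6 leading domains 3 lay on 2L: at 11356206 to 11360540, scoring 1.26 in the combined list, at 5458904 to 5463900, scoring 1.25, and at 11443634 to 11449411, scoring 1.17. The first of these was the most remote of the 6, with gaps of 38365 and 66775 bp. The fifth by score was a 3348-bp domain at 2566083 to 2569430 on 3R, with a combined score of 1.19 and a gap of 55725 bp on its proximal side. All 6 were single regions in each of the 3 lists, and they were between 3348 and 6343 bp wide.

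Several high-scoring isolated domains lay close together on 3R, in a stretch that was singled out after its values were seen. Within 238.3 kb, from 2502568 to 2740830, there were 6 isolated domains, all found in both replicates. Their combined scores were 1.04, 1.19, 0.97, 1.17, 0.83 and 1.11 in order along the arm, and gaps of up to 55725 bp separated them from their neighbours. The same stretch held 7 other domains that were not isolated. A second pair on 3R, at 12527107 to 12530787 and at 12587513 to 12591272, scored 1.15 and 1.10 in the combined list and was found in both replicates. Between them lay 2 narrow isolated domains, 1344 and 1041 bp wide with scores of 0.30 and 0.49, that neither replicate list held.

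The 5 most remote isolated domains scored between 0.32 and 0.63 in the combined list, and 4 of them were narrower than 2000 bp. The domain with the largest smaller gap, at 23731955 to 23732958 on 3L, was 254861 bp from its nearest neighbour and 0.811 Mb from the centromeric end of the assembled arm. It was 1004 bp wide, scored 0.40 in the combined list and was in neither replicate list. Next came a 1897-bp domain at 23262799 to 23264695 on 3R, 113196 bp from its nearest neighbour, with a combined score of 0.32. Both replicates held it, with scores of 0.37 and 0.67. The 1421-bp domain at 13090918 to 13092338 on 3R, with a smaller gap of 111807 bp, was in neither list, and the 1315-bp domain at 23993259 to 23994573 on 3R was in replicate 1 only. The last of the 5, at 18297552 to 18301324 on 3L, was 3773 bp wide with a smaller gap of 89619 bp and was in both, scoring 0.65 in replicate 1 and 1.13 in replicate 2. So 2 of these 5 were in both lists and 2 in neither.

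The widest isolated domains were found in both replicates but were cut up differently. The 9989-bp domain at 5143788 to 5153776 on 2L was called as 1 combined-list region; replicate 1 met it with 3 regions that covered 88.8% of it and replicate 2 with 2 that covered 61.1%. The 9939-bp domain at 18508378 to 18518316 on 3R was joined from 2 combined-list regions and met 2 regions of replicate 1 and 3 of replicate 2. The 9725-bp domain at 1961969 to 1971693 on 3L was a single region in every list, covered to 98.1% in replicate 1 and 97.3% in replicate 2. These 3 scored 0.73, 0.84 and 0.87 in the combined list.

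The members with the shortest smaller gaps, of 10009, 10022 and 10022 bp, were 1197, 4322 and 2526 bp wide. The domains just under the limit, with smaller gaps of 9983, 9979 and 9974 bp, were 1900, 1317 and 3796 bp wide. In width, the nearest domains outside were 10212 and 10454 bp.

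Isolated domains of the combined list were found in the single replicates less often than its other domains. Most of this gap goes with width. A domain counted as found when it overlapped a region of a replicate by at least 1 bp. Replicate 1 held 239 of the 473, or 50.5% (exact 95% binomial interval 45.9% to 55.1%), and replicate 2 also held 239, of which 159 were held by both. Over all 3880 domains within the width limit the shares were 65.7% in replicate 1 and 64.9% in replicate 2. Among non-isolated domains they were 67.8% (66.2% to 69.4%) and 66.9% (65.3% to 68.5%). When the non-isolated domains were weighted to the widths of the isolated ones, in 8 width classes, their shares came down to 53.4% and 54.5%. The difference at the same width was then -2.88 percentage points in replicate 1 and -4.02 in replicate 2, a mean of -3.45 ± 0.80 (SD, n = 2). With 2 ChIP libraries of 1 condition and a combined list made from the same samples, no test was made, and intervals cover counting error over domains only. With the higher-scoring 50% of the combined-list regions alone, the rule chose 420 isolated domains anew. For that other set the mean difference was 0.34 percentage points, with the opposite sign.

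**Figure D1:**
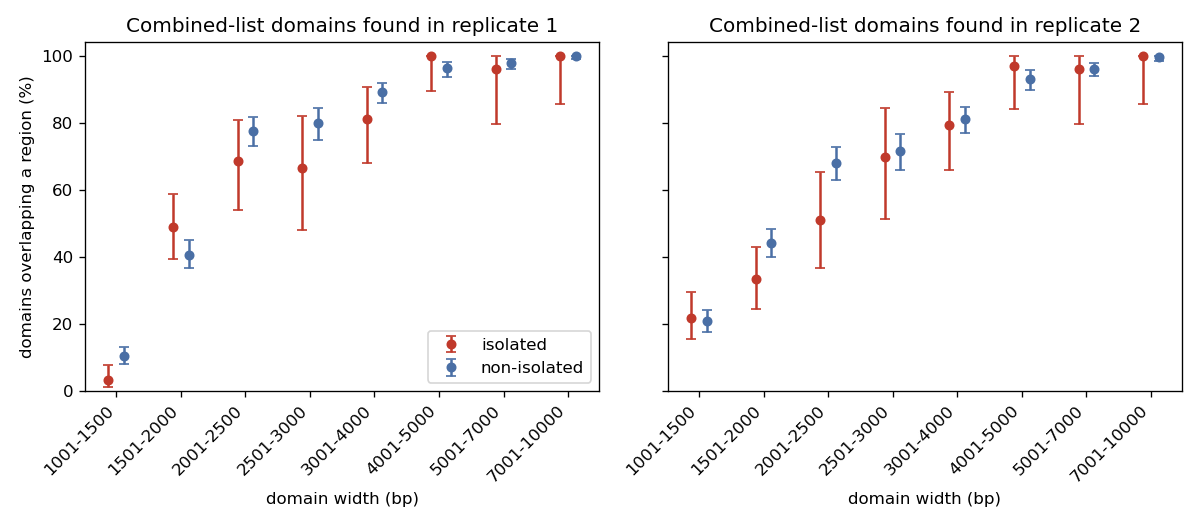
Share of combined-list domains on 2L, 3L and 3R (y axis, percent) that overlap a region of replicate 1 (left) or replicate 2 (right), by domain width in bp (x axis), for isolated (red) and non-isolated (blue) domains; bars are exact 95% binomial intervals. For isolated domains the share climbs from 3.42% and 21.9% in the narrowest class to 96.0% or more from 4001 bp, and the intervals of the groups overlap in every class except the narrowest of replicate 1.

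Among combined-list domains, width separated found from missing ones far more than isolation did. In the narrowest class, 1001 to 1500 bp, replicate 1 held 5 of 146 isolated domains, or 3.42% (1.12% to 7.81%), and 10.4% (8.12% to 13.1%) of 625 non-isolated ones. Replicate 2 held 21.9% (15.5% to 29.5%) and 20.8% (17.7% to 24.2%). No region of either replicate was narrower than 1301 bp, whereas 103 isolated and 434 non-isolated domains of the combined list were. In the class of 1501 to 2000 bp the order differed between the replicates. Replicate 1 held 49.1% of 108 isolated and 40.7% of 553 non-isolated domains there, and replicate 2 held 33.3% and 44.1%. In the class of 2001 to 2500 bp replicate 2 held 51.0% (36.6% to 65.2%) of 51 isolated and 68.0% (63.0% to 72.7%) of 378 non-isolated domains. From 4001 to 10000 bp, replicate 1 held 33 of 33, 24 of 25 and 24 of 24 isolated domains in the 3 classes, and replicate 2 held 32, 24 and 24.

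Together the replicates split the isolated domains into 159 found in both, 80 in replicate 1 only, 80 in replicate 2 only and 154 in neither. The share in both was 33.6% (29.4% to 38.1%), against 51.5% of all domains within the width limit and 37.6% of non-isolated domains weighted to the same widths. The share in neither was 32.6% (28.4% to 37.0%), against 20.9% of all domains within the limit and 29.6% at the same widths. From the higher-scoring 50% of regions alone, the rule chose 420 isolated domains anew, and 3.33% of that other set were in neither. Of the 473, those in both were wide, with a median of 3990 bp and none under 1535 bp. Those in replicate 1 only, in replicate 2 only and in neither had medians of 1903.5, 1627.5 and 1267.5 bp. Their median combined scores were 0.63 for those in both, 0.45 for replicate 1 only, 0.44 for replicate 2 only and 0.45 for neither.

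Where the replicates held an isolated domain, they mostly held it as 1 piece and left it isolated. Isolation was set in a combined list made from the same samples, so this is no independent check of it. Of all domains within the width limit, the rule made 501 of 3275 isolated in the list of replicate 1 and 553 of 4022 in that of replicate 2. Of the 239 found in replicate 1, 209 met 1 region, 26 met 2 and 4 met 3 or more, and in replicate 2 the numbers were 205, 30 and 4. These numbers were not compared with non-isolated domains of the same width, so they are no trait of isolation. By the same rule applied to the replicate's own list, 225 of the 239 were isolated in replicate 1, or 94.1% (90.4% to 96.8%), and 190 of the 239 in replicate 2, or 79.5% (73.8% to 84.4%). Replicate 1 had a region in the 10000 bp on either side of only 3 of the 473 isolated domains. Replicate 2 had one beside 69, or 14.6% (11.5% to 18.1%), and these extra regions had a median width of 1616 bp.

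Coverage by the replicates dropped sharply at the edges of isolated domains. Over the 137 isolated domains of 2001 to 4000 bp, replicate 1 covered on average 67.7% of the bases within 0.5 kb of the centre and replicate 2 covered 56.7%. In the flanks of 10000 bp on both sides of all 473, replicate 1 covered 0.103% and replicate 2 covered 1.68%, against 23.0% and 22.0% beside non-isolated domains at the same widths. The flanks of isolated domains are empty in the combined list by the rule, and that list was made from the same samples as the replicate lists. Apart from arm ends, non-isolated domains have a neighbour within 10000 bp on at least 1 side by definition. The contrast in the flanks thus follows the choice of domains and is no independent check. At 20 to 30 kb from the centre, the replicates covered 15.5% each around isolated domains and 29.4% and 27.5% around the 1089 non-isolated domains of the same width. This lies beyond the 10000 bp that the rule required to be empty, but is not free of the choice. Of all 473 isolated domains, 284 had a gap of 30000 bp or more on at least 1 side, so the stretch often falls in the same gap.

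**Figure D2:**
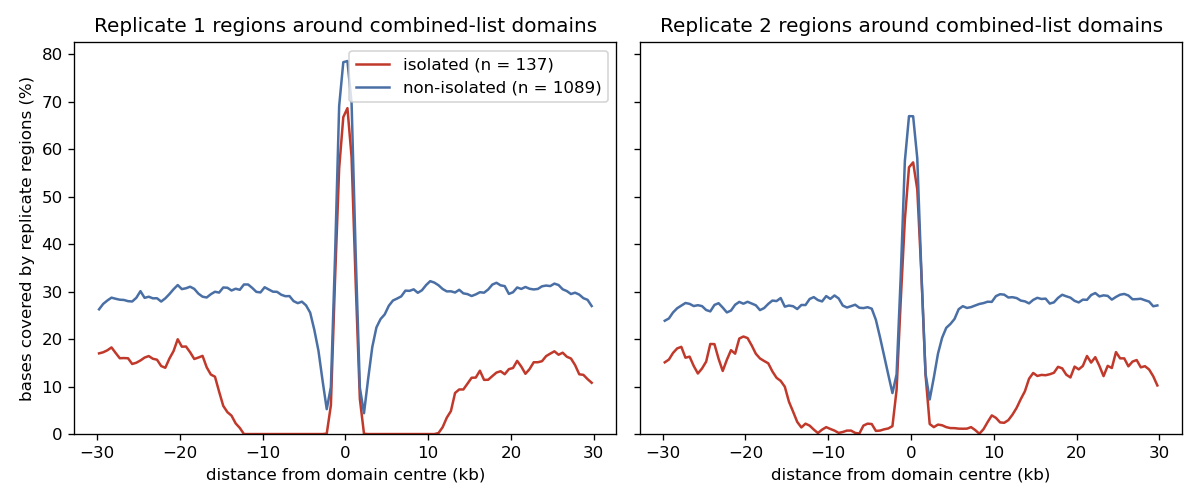
Share of bases covered by replicate 1 (left) and replicate 2 (right) regions (y axis, percent) against distance from the domain centre in kb (x axis, steps of 500 bp), averaged over combined-list domains of 2001 to 4000 bp. Isolated domains (red, n = 137) stand as a single spike with nearly empty flanks to 10 kb, where the rule left the combined list empty. Coverage at 20 to 30 kb is 15.5% in either replicate, below the 29.4% and 27.5% around non-isolated domains (blue, n = 1089).

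To measure recovery in data that the choice of members had not used, the rule was applied to 1 replicate's own list and the other replicate was searched. In both directions the share found was lower for isolated domains than for non-isolated domains of the same width, a difference that was not tested. Replicate 1 alone gave 501 isolated domains, of which 334 or 66.7% (62.3% to 70.8%) overlapped a replicate 2 region. The share was 79.2% of all replicate 1 domains within the width limit and 81.5% of non-isolated ones. Weighted to the same widths, it was 72.7% of non-isolated ones, a difference of -6.07 percentage points. Replicate 2 alone gave 553, of which 297 or 53.7% (49.5% to 57.9%) overlapped replicate 1, against 77.8% of all its domains within the limit. Among non-isolated ones the share was 81.6%, and 72.1% at the same widths. The difference at the same widths was -18.4 percentage points, so most of the gap in this direction stayed after weighting by width. The mean of the 2 directions was -12.2 ± 8.7 (SD, n = 2). It was -3.49 when the rule was applied anew to the higher-scoring 50% of each list.

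The difference was largest among narrow domains. Of the replicate 2 isolated domains, replicate 1 held 14.4% (8.47% to 22.4%) of the 111 at 1301 to 1500 bp and 31.2% (24.7% to 38.3%) of the 189 at 1501 to 2000 bp. Non-isolated replicate 2 domains of these classes were held to 48.5% (43.0% to 54.0%) and 58.7% (55.2% to 62.2%). Of the replicate 1 isolated domains, replicate 2 held 32.1% (21.9% to 43.6%) and 40.6% (32.3% to 49.3%) in the same classes, and 45.7% (39.3% to 52.2%) and 55.7% (51.0% to 60.3%) of the non-isolated ones. At 2001 to 2500 bp the order differed between the directions: 81.8% isolated against 75.1% non-isolated from replicate 1, and 63 of 84 against 85.8% from replicate 2. Above 2500 bp the shares of both groups were between 79.6% and 100%, and their intervals overlapped in every class. With 12 to 60 isolated domains per class, such overlap does not show equal shares. From 2501 to 5000 bp the isolated share was the lower one in each class and direction, and from 5001 bp all isolated domains were held. Isolated domains that the other replicate held were the wider ones, at 2864.5 bp in the median from replicate 1 (missing ones 1628 bp) and 2696 bp from replicate 2 (missing ones 1618 bp).

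Beside these shares, the other replicate also covered far less of the surroundings of isolated domains. Its mean coverage of the 10000-bp flanks was 6.15% for isolated and 31.1% for non-isolated domains at the same widths when replicate 1 chose, and 4.90% and 36.6% when replicate 2 chose. When at least 50% of a domain had to be covered, the mean difference in the share found was -12.5 percentage points. At either overlap limit, how much of the difference goes with the coverage of the surroundings was not tested.

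**Figure D3:**
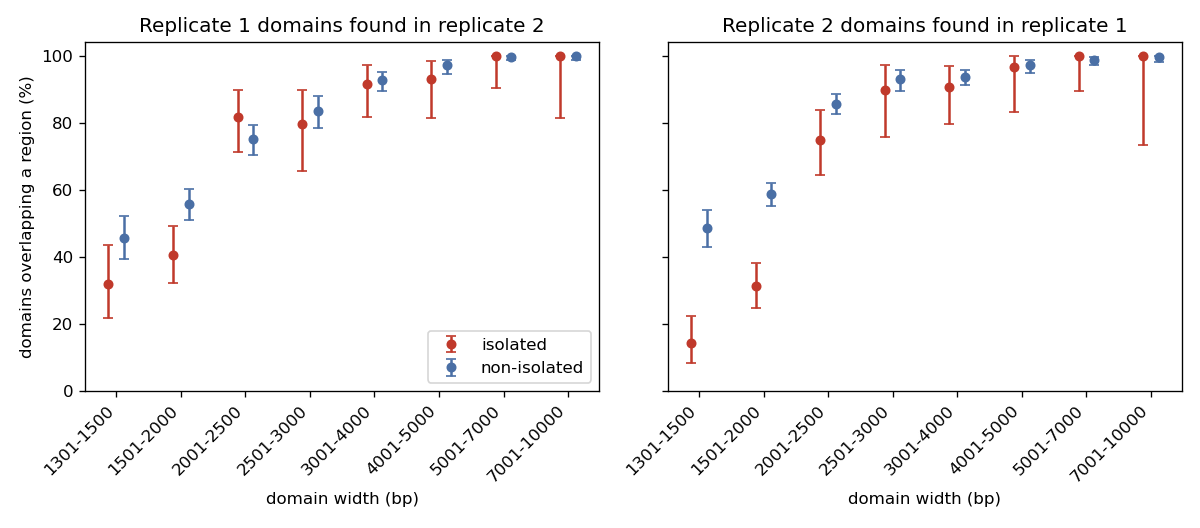
Share of domains chosen in 1 replicate's own list (y axis, percent) that overlap a region of the other replicate, by width in bp (x axis), for isolated (red) and non-isolated (blue) domains, with exact 95% binomial intervals. For replicate 2 domains (right) the groups part at 1301 to 1500 bp, with 14.4% against 48.5%, and at 1501 to 2000 bp, with 31.2% against 58.7%; above 2500 bp the intervals overlap in each class.

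At the same width, isolated domains of the combined list scored about as high as others. The median combined score was 0.47 for isolated domains, with a range of 0.07 to 3.07, and 0.53 for non-isolated ones. On average an isolated domain outscored 47.6% of the non-isolated domains in its width class, where 50% means the same order. In the replicate lists, over the domains each list held, the value was 48.4% in replicate 1 and 51.3% in replicate 2. With the rule applied to 1 replicate's own list, it was 51.6% in replicate 1 and 49.9% in replicate 2. By the scores of the other replicate, it was 47.6% when replicate 1 chose and 43.8% when replicate 2 chose. Median scores in the class of 3001 to 4000 bp were 0.60 in both groups, and at 5001 to 7000 bp they were 0.63 for 25 isolated and 0.74 for 436 non-isolated domains. In both groups the class of 1001 to 1500 bp had a higher median score (0.46 isolated, 0.45 non-isolated) than the class of 1501 to 2000 bp (0.40 and 0.41). Across domains, the Spearman rho of width and score was 0.44 over the 473 isolated and 0.71 over the 3407 non-isolated domains, which also reach larger widths more often.

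**Figure D4:**
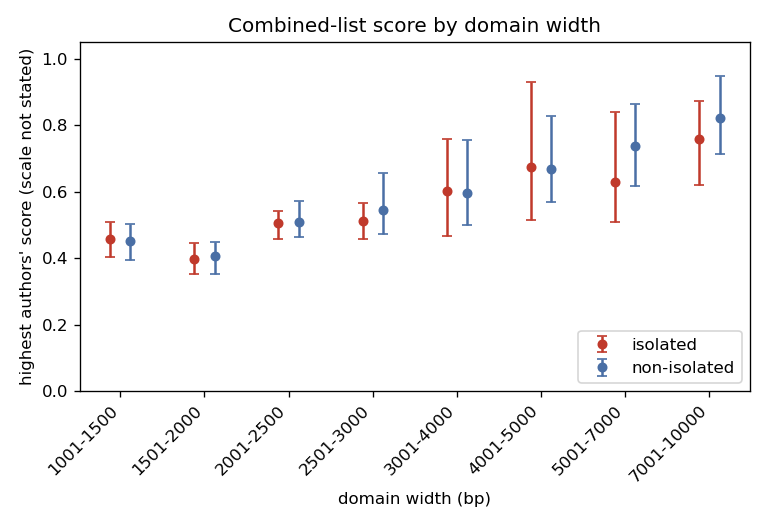
Highest authors' score per combined-list domain (y axis, scale not stated) by domain width in bp (x axis), as medians with quartiles, for isolated (red) and non-isolated (blue) domains. Medians go from 0.46 isolated and 0.45 non-isolated at 1001 to 1500 bp to 0.76 and 0.82 at 7001 to 10000 bp, and lie farthest apart at 5001 to 7000 bp, with 0.63 and 0.74.

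A combined score above 1 was reached by 22 isolated domains, or 4.65%, and by 4.90% of non-isolated ones, which is 2.98% at the widths of the isolated set. Of the 22, 18 were in both replicates, between 3348 and 8361 bp wide, with 10 on 3R, 5 on 2L and 3 on 3L. The other 4 were all narrower than 1500 bp and none of them was in both lists. They include the highest scores of the isolated set. The 1038-bp domain at 12734732 to 12735769 on 2L scored 3.07 and was in replicate 2 only, with a score of 1.40 there. The 1001-bp domain at 12894563 to 12895563 on 2L scored 2.19 and was in neither list. The isolated domain between them, 1034 bp wide at 12815621 to 12816654, scored 0.51 and was also in neither. The next highest among those in neither were a 1042-bp domain at 19344758 to 19345799 on 2L, scoring 0.86, and a 1004-bp domain at 13658512 to 13659515 on 2L, scoring 0.74.

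A score shared exactly with another region of the combined list was frequent among domains in neither replicate list, isolated or not. Domains in neither also had the smallest median width in both groups, and ties by replicate status were not compared at the same width. Such a tie was found for 80 of the 154 in neither, or 51.9%, for 37 of the 80 in replicate 2 only, for 18 of the 80 in replicate 1 only and for 17 of the 159 in both, or 10.7%. Among non-isolated domains 55.6% of those in neither and 11.5% of those in both were tied. Over all isolated domains 32.1% were tied, against 34.4% of non-isolated ones at the same widths. Among the 159 found in both, scores in replicate 1 ran from 0.26 to 1.49 with a median of 0.70, and in replicate 2 from 0.49 to 2.25 with a median of 1.07. The Spearman rho between the 2 scores was 0.58 over these 159 domains and 0.59 over the 1840 non-isolated domains in both. These points share their libraries and are not independent replicates.

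Isolated domains were spread along all 3 arms. There were 142 on 2L, 145 on 3L and 186 on 3R, which is 6.17, 5.91 and 6.67 per Mb. As a share of the domains within the width limit they made up 12.7% (10.8% to 14.8%) on 2L, 11.3% (9.60% to 13.1%) on 3L and 12.6% (11.0% to 14.4%) on 3R, with overlapping intervals. Replicate 1 held 47.9%, 49.0% and 53.8% of them on the 3 arms and replicate 2 held 50.7%, 53.1% and 48.4%. In the 74 full windows of 1 Mb, the number of isolated domains had a median of 6 and ran from 0 to 13. The window without any was 3L from 3000001 to 4000000, where 43.4% of the bases were covered in the combined list. The windows with 13 were 3L from 22000001 to 23000000, covered to 18.8%, and 3R from 2000001 to 3000000, covered to 23.5%. Across the 74 windows the number of isolated domains and the covered share had a Spearman rho of -0.44, and the rule itself makes isolated domains rarer where coverage is dense.

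**Figure D5:**
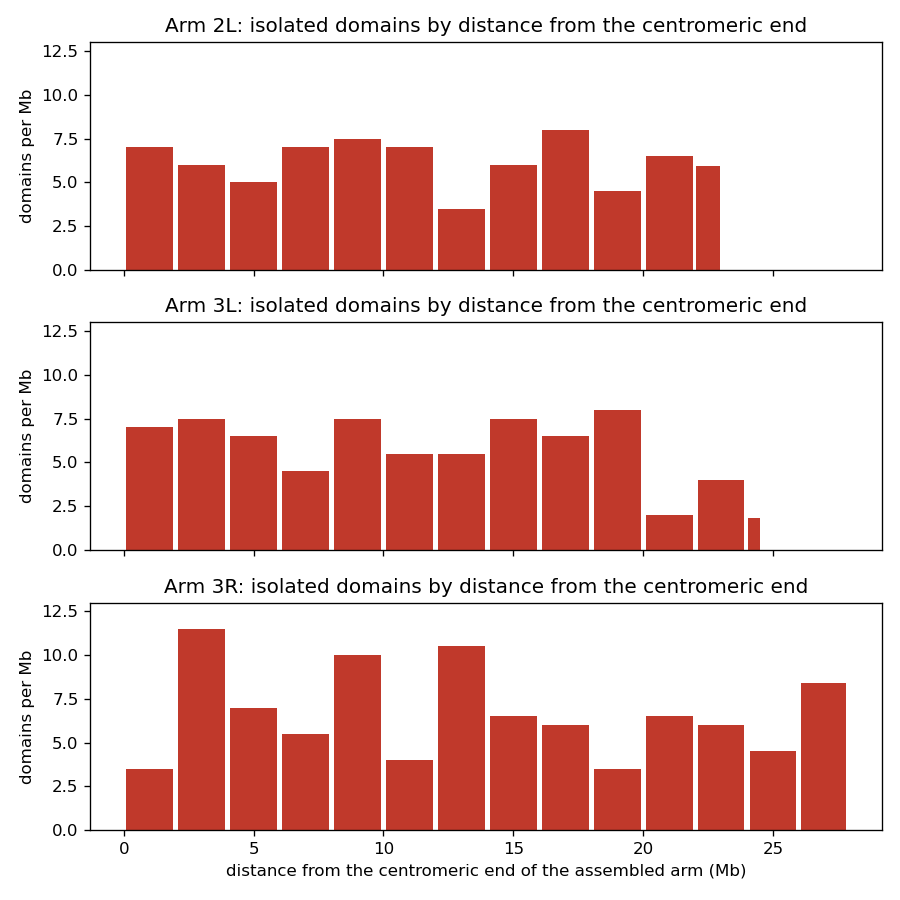
Isolated domains per Mb (y axis) in steps of 2 Mb from the centromeric end of each assembled arm (x axis, Mb), for 2L, 3L and 3R; the last step of an arm is shorter. The density ranges from 1.84 to 11.5 per Mb, with the highest bar on 3R at 2 to 4 Mb, beside a low one of 3.50 in its first 2 Mb.

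Near the centromeric ends the arms differed. The 2 Mb at this end held 14 isolated domains on 2L and 14 on 3L, or 7.00 per Mb each, against 6.09 and 5.81 per Mb on the rest of these arms. On 3R they held 7, or 3.50 per Mb, against 6.91 on the rest. On 3L the 14 were 42.4% of the 33 domains within the width limit there, and on 3R the 7 were 5.47% of 128. Over the 3 arms the density at the centromeric end was 0.93 times that of the rest, while isolated domains made up 15.0% (10.6% to 20.2%) of the domains within the width limit there and 12.0% (11.0% to 13.1%) on the rest. The density ratio was 0.63 times in the list of replicate 1 and 0.78 times in that of replicate 2.

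Many isolated domains lay next to each other, which the rule favours, since adjacent domains share a gap. Of the 473, 318 or 67.2% had another isolated domain as the next or the previous one. There were 155 single ones, 54 runs of 2, 32 of 3, 16 of 4, 5 of 5, 3 of 6 and 1 of 7. The run of 7 spanned 154.0 kb on 3R, from 9255754 to 9409777, with widths of 1045 to 5627 bp and scores of 0.38 to 0.75; 2 of the 7 were in both replicates and 2 in neither. Over all domains on the 3 arms 10.7% were isolated, and of the 6809 neighbours of non-isolated domains 468 were. How many neighbours the rule alone would make isolated was not tested. Of the 946 neighbours of isolated domains, 414 were isolated domains themselves. The other 532 had a median width of 2896 bp, 12.0% (9.39% to 15.1%) of them were wider than 10000 bp and 55.6% (51.3% to 59.9%) were in both replicates. The 6341 neighbours of non-isolated domains that were not isolated themselves had a median width of 3136 bp, and 12.9% (12.0% to 13.7%) were wider than 10000 bp and 59.1% (57.9% to 60.4%) in both replicates, with overlapping intervals. A domain can be counted as a neighbour from both of its sides, so these intervals are too narrow.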

How the data were processed

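H3K4me1 ChIP and input DNA of fly head nuclei were sequenced. Per the submitters' processing notes, Bowtie 0.12.7 aligned the reads. Deposited by the authors were 1 list of regions of significant enrichment per ChIP replicate and 1 for the replicate set, each region with a score, and positions on FlyBase release 5, per the file headers. The scale of the score, the peak caller and its thresholds are not given in the sources used here, and neither is read depth.

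Groups came from the labels. Domains were joined and chosen as the report states; the first and the last domain of an arm were not counted as isolated. Width classes ended at 1500, 2000, 2500, 3000, 4000, 5000, 7000 and 10000 bp, and non-isolated shares were averaged over them with the isolated domains' numbers as weights. Shares have exact Clopper-Pearson 95% intervals. Named domains were the 6 highest-scoring in both replicates, the 5 most remote, the 3 widest, the 3 highest-scoring in neither, and those at each threshold; others were chosen after their values were seen. The 2R arm was not used here. The members, classes and alternatives were chosen with earlier results of these data known. Computations used Python 3.11.15, numpy 2.4.6 and scipy 1.17.1, and the functions were tested on simulated lists.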

Additional observations from a re-analysis of the deposited data

How the results depend on the processing

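Requiring gaps over 5000 bp gave 1048 isolated domains and gaps over 20000 bp gave 173. At 5000 bp an isolated domain outscored 50.2% of the others of its width, past the point of equal order, and the density at the centromeric ends was 0.753 times the rest. The mean recovery difference at the same width was -4.71 percentage points without joining, -2.58 with joining across 1000 bp and -5.11 when 50% of a domain had to be covered; with replicate 1 or replicate 2 left out it lay between -4.02 and -2.88. With the higher-scoring 50% of regions the rule chose 420 isolated domains anew, and the mean recovery difference was 0.34 percentage points. The share in neither replicate was then 3.33%, the recovery difference across replicates -3.49 percentage points and the centromeric density 0.795 times the rest. The cause was not tested. With 1 replicate left out, the share of isolated domains not found was 49.5% either way, since fewer lists were searched. A width limit of 5000 bp brought the difference of median widths to -328.5 bp, by leaving out wide domains. The other alternatives gave between 402 and 498 isolated domains and moved the remaining results by less than the spread between replicates or, for the share in neither, stayed within its interval. For the recovery difference across replicates that spread was wide, at 8.7 percentage points (SD, n = 2). This difference was -17.1 percentage points without joining and -9.11 with joining across 1000 bp. Alternatives for the recovery across replicates and for the centromeric density, and the one without isolated domains that have a replicate region in their flanks, were chosen after seeing the data. No paired analysis was possible because the lists used here are all of the ChIP group, with each input entering only as the control of its ChIP. Depth is unknown, so a domain missing from a list was not shown to lack the mark.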
